A study of Mus musculus with 6 samples.

Results

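Organoids that had not lengthened by day 6 were compared with organoids that had, by summed counts and shares of cells, within the single deposited table that holds both kinds. The members are all 4301 cells of that day 6 table, taken by the library name beside each cell: 2225 cells of the non-elongated library and 2076 of the elongated library of batch 1. They come from 2 of the 6 libraries of the series, and the others were not used here. Both libraries came from mouse embryonic stem cells with a Sox1::eGFP and a Bra::mCherry reporter, embedded in Matrigel at 1125 cells per 10 µl drop. For 3 days the N2B27 medium held bFGF, a fibroblast growth factor, at 12 ng/ml and activin-A at 20 ng/ml, and N2B27 without them followed to day 6. At harvest, 100 organoids per condition were pooled and dissociated with TrypLE. Each side is thus 1 pool of organoids and 1 library, with no replicate, so fold changes and shares are given and nothing was tested.

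A neural tube organoid is a hollow structure of neural progenitors. In the embryo, epiblast cells, which carry the pluripotency factor Pou5f1, give rise to neural progenitors marked by Sox1 and Pax6, to mesoderm marked by Mesp1, and to surface ectoderm, a simple epithelium of keratins and claudins. The caudal epiblast, marked by Cdx2, Nkx1-2 and T, feeds cells into the spinal cord as the body axis lengthens. Position along the neural tube is read from Otx2 and En1 in the midbrain, Egr2 in the hindbrain, and the Hox genes of the later groups in the spinal cord.

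The table names its libraries NENT and SENT. They were read by their initials as non-elongated and elongated, which the labels do not spell out. The label of the non-elongated library gives no batch, so elongation, batch and library cannot be told apart. Depth was alike: 74072752 UMIs (transcript molecules counted once) in the non-elongated library and 77027668 in the elongated, with medians of 31906 and 34854.5 UMIs and 5258 and 5495 genes per cell. Mitochondrial transcripts made up a median of 5.21% and 5.25% of a cell's UMIs, and 1 cell barcode occurred in both libraries. Intervals below are 95% exact intervals that cover counting error only, not the spread between organoids or libraries.

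The authors gave each cell 1 of 7 class names. Non-elongated organoids held more caudal epiblast cells, 1014 of 2225 or 45.6% (43.5 to 47.7%), against 378 of 2076 or 18.2% (16.6 to 19.9%) in elongated organoids. They held fewer cells of the hindbrain and spinal cord classes. Hindbrain cells made up 22.7% of the non-elongated library against 35.6%, and spinal cord cells 7.96% against 24.4%. Anterior epiblast cells made up 5.39% against 9.54%. Surface ectoderm cells were at nearly the same share, 7.37% and 7.23%, as were midbrain cells at 4.58% and 4.14%, with overlapping intervals in both classes. Mesenchyme cells were 143 against 17. With under 50 elongated cells, the mesenchyme class was left out of the comparisons within classes.

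**Figure D1:**
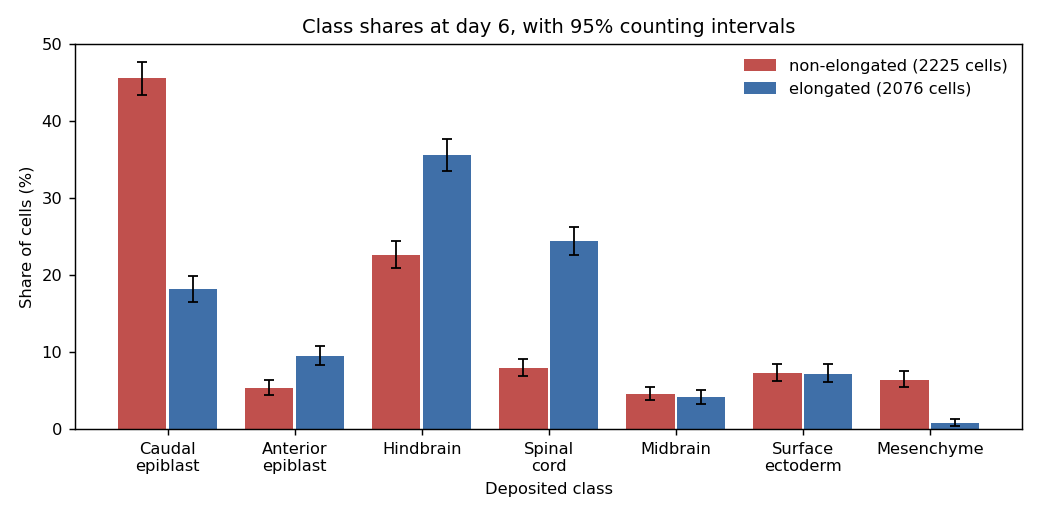
Share of cells (percent) in each deposited class for the 2 day 6 libraries, with exact 95% intervals as error bars. Caudal epiblast stands at 45.6% in the non-elongated and 18.2% in the elongated library, and spinal cord at 7.96% and 24.4%.

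The class names were checked against marker genes. Levels are in CPM, a gene's UMIs per 1e6 UMIs of the summed cells. Surface ectoderm markers summed to 5344 CPM in the non-elongated surface ectoderm class against 719 in the other cells of that library, and to 1193 against 231 in the elongated library. Markers of the midbrain, caudal epiblast, spinal cord and mesenchyme were also higher in the class of that name than outside it in both libraries. In the non-elongated library, however, caudal epiblast markers summed to 433 CPM in their own class, 494 in the mesenchyme and 382 in the spinal cord class. The caudal epiblast markers thus do not single out the caudal epiblast class in that library. For the anterior epiblast the excess was 456 against 403 CPM in the non-elongated and 411 against 207 in the elongated library. In the caudal epiblast class the anterior epiblast markers summed to 519 CPM in the non-elongated and 303 in the elongated library. In the non-elongated library they thus do not single out the anterior epiblast class. In the hindbrain class the excess was small, 622 against 493 CPM in the non-elongated and 703 against 594 in the elongated library. Hindbrain markers summed to more in the spinal cord class, 635 CPM in the non-elongated and 775 in the elongated library. These markers thus do not single out the hindbrain class in either library. None of the hindbrain markers was among the 10 leading genes of that class in non-elongated cells, which included Crabp1, Sox21 and Sox1, whereas Egr2 was among them in elongated cells. The non-elongated anterior epiblast class had 3 midbrain markers (En1, Otx2 and Pax2) among its 10 leading genes and 1 marker of its own, Otx2, which both lists hold. The shares of these classes rest on the authors' assignment.

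Over all cells, 5364 genes reached 20 CPM in 1 library or both, and 80 of them were at least 2-fold apart, which is 1.49%. Of these, 51 (0.951%) were higher in non-elongated organoids and 29 (0.541%) lower. Genes of simple epithelium and of the epiblast led the higher side, and transcription factors of neural progenitors led the lower side. Folds are ratios of CPM, and log2 differences add 1 CPM to both sides, positive where the non-elongated library was higher; 2-fold means at least 1 on that log2 scale, in either direction. In sums over all cells, fewer cells of a type and less RNA per cell cannot be told apart.

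**Figure D2:**
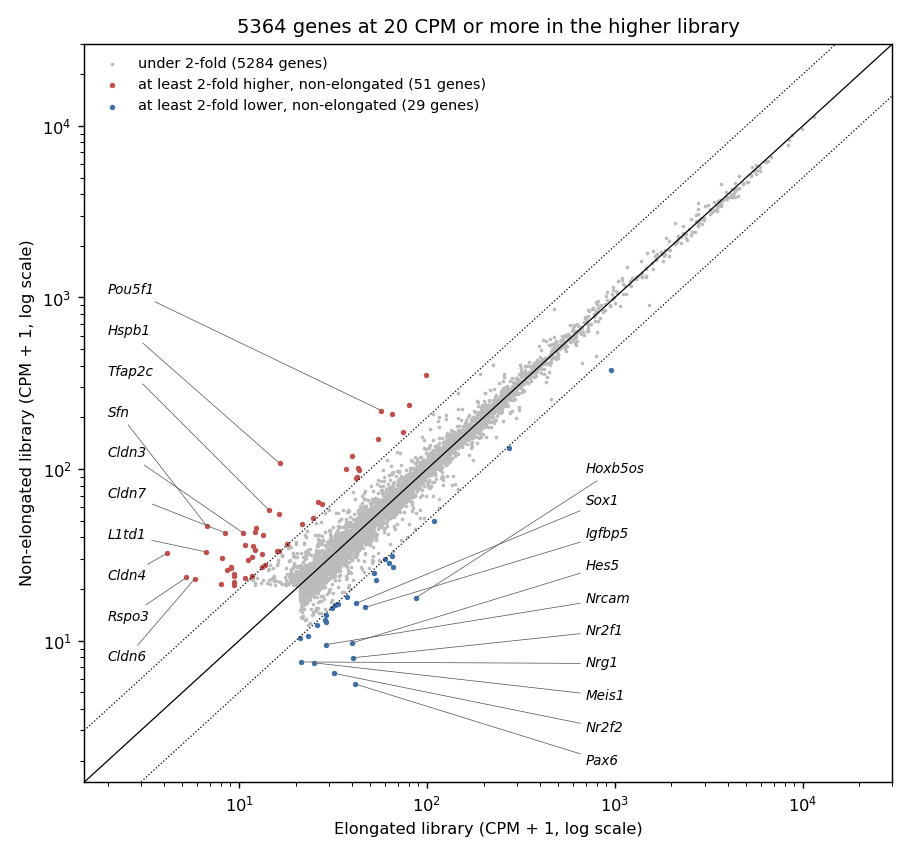
Level of each of 5364 genes in the elongated library (horizontal, CPM + 1, log scale) and in the non-elongated library (vertical, CPM + 1, log scale), with the genes at least 2-fold apart coloured. Cldn4, Sfn and Hspb1 lie farthest above the diagonal, and Pax6 lies farthest below it.

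The promoters of 2 genes from each end are shown because these genes stand at the extremes of the comparison or of its classes. Each run holds 250 bases before and 50 bases after a start given by RefSeq on GRCm38.p6, 5′ to 3′ on the gene's strand. For Hes5 that start lies inside the gene's RefSeq span, which begins at 154960626, upstream of the window. Capitals mark a match to the Grainyhead motif AACCNGTT or the AP-2 motif GCCNNNGGC, searched on both strands, 2 motifs of factors known from surface ectoderm. Sfn lies at chr4:133602119-133602418 on the minus strand, Cldn4 at chr5:134946885-134947184 on the minus strand, Pax6 at chr2:105668646-105668945 and Hes5 at chr4:154960673-154960972, both on the plus strand.
Sfn: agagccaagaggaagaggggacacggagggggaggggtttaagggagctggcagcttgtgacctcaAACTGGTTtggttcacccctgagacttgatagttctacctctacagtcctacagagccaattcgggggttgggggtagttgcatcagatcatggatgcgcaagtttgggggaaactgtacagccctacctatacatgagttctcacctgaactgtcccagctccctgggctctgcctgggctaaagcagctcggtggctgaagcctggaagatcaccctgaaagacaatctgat
Cldn4: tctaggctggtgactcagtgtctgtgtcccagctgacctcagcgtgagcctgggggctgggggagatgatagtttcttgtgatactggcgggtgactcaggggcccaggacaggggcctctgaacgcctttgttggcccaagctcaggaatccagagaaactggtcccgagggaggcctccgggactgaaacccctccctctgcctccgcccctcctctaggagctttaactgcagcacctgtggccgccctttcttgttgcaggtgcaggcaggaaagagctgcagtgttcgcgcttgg
Pax6: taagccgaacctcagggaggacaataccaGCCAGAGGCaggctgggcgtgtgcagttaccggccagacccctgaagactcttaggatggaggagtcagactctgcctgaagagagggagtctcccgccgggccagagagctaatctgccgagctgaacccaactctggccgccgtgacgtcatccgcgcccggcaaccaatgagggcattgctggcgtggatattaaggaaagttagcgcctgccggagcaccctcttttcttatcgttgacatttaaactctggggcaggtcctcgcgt
Hes5: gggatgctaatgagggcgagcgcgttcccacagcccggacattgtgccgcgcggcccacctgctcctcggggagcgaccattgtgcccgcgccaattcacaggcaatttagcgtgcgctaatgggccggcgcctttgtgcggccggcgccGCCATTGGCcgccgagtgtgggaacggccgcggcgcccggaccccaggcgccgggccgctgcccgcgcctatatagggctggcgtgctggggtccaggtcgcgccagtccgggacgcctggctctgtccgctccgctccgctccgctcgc
The Sfn promoter holds AACTGGTT, a Grainyhead match on the other strand, at -184 from that start. The motif is present in 543 of 27025 promoters of the same length (2.01%) and in 1 of 11 promoters found for the epithelial list. Pax6 holds the AP-2 match GCCAGAGGC at -221 and Hes5 GCCATTGGC at -100. The AP-2 motif is in 4461 of the 27025 promoters (16.5%), in 3 of the 11 of the epithelial list and in 6 of the 13 found for the neural progenitor list. Neither motif is in the Cldn4 window, which says only that these letters are not in this window.

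Cldn4, a claudin of epithelial tight junctions, stood at 31.3 CPM (2322 UMIs) in the non-elongated and 3.14 CPM (242 UMIs) in the elongated library, 9.98-fold higher (8.74 to 11.4). Sfn, a 14-3-3 protein of epithelia, stood at 45.6 and 5.74 CPM, 7.95-fold higher (7.19 to 8.79). Hspb1, a small heat shock protein, stood at 107 and 15.4 CPM, 6.92-fold higher (6.51 to 7.36). These UMIs came mostly from surface ectoderm and caudal epiblast cells. The surface ectoderm class gave 56.5% of the Cldn4 UMIs in the non-elongated and 52.5% in the elongated library, and the caudal epiblast class 33.8% and 25.2%. For Sfn the surface ectoderm class gave 63.2% and 74.4%.

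More claudins and an AP-2 factor followed. Cldn7 stood at 41.5 and 7.45 CPM, Cldn3 at 41.6 and 9.48, and Cldn6 at 22.0 and 4.82. Tfap2c, an AP-2 transcription factor, stood at 56.5 and 13.5 CPM. The keratins and the adhesion molecule Epcam were higher too, by less: Krt8 at 352 and 97.3 CPM (log2 1.84), Krt18 at 237 and 79.1 (1.57) and Epcam at 210 and 64.4 (1.69).

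Pou5f1, the pluripotency factor, stood at 218 CPM in the non-elongated and 56.2 in the elongated library, 3.89-fold higher (3.76 to 4.02). L1td1, an RNA-binding protein of pluripotent cells, stood at 31.9 and 5.66 CPM (log2 2.31). In both libraries most Pou5f1 UMIs came from the caudal epiblast class, 71.8% and 52.6%. Rspo3, an R-spondin that enhances Wnt signalling, stood at 22.4 and 4.25 CPM (log2 2.15), and 57.6% and 26.6% of its UMIs came from the mesenchyme class. Mesp1, a factor of early mesoderm that stayed under 20 CPM, was at 7.86 and 0.454 CPM, with 95.4% and 62.9% of its UMIs in mesenchyme cells.

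Pax6 led the lower side. It stood at 4.60 CPM in the non-elongated and 40.3 in the elongated library, 8.75-fold lower (7.82 to 9.82). Most elongated Pax6 UMIs came from the spinal cord class (65.1%), against 12.6% of the few in the non-elongated library. Nr2f1 and Nr2f2, orphan nuclear receptors of neural progenitors, were 5.65-fold and 5.70-fold lower, at 6.95 against 39.3 CPM and 5.45 against 31.1 CPM. Hes5, an effector of Notch signalling in neural progenitors, stood at 8.69 and 38.8 CPM, 4.47-fold lower. Sox1, whose reporter the line carries, stood at 15.5 and 40.9 CPM, 2.64-fold lower. The other genes among the 10 lowest were Hoxb5os, an RNA antisense to the HoxB cluster, at 16.8 and 86.2 CPM, Meis1, a Hox cofactor, at 6.44 and 23.9, Nrcam at 8.49 and 28.0, Igfbp5 at 14.7 and 46.0, and Nrg1 at 6.52 and 20.4. Whether counting used strand is not given in the sources used here, so reads of Hoxb5os and of the Hox genes it overlaps cannot be told apart.

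Gene lists were compared over all cells as well. They hold genes named above, among them Sfn, Pou5f1 and Pax6, and were chosen with earlier results of these data known. The lists are thus no separate support. Of all genes above 20 CPM, 0.951% were 2-fold higher and 0.541% lower. In each list only members that reached 20 CPM could count as 2-fold apart, whereas the median and the range cover all members. In the surface ectoderm and epithelium list, 9 of 18 genes reached 20 CPM and these 9 were at least 2-fold higher, and all 18 were on the higher side, with a median log2 difference of 1.75. The median over all genes above 20 CPM was -0.01. In the pluripotency list 10 of 15 genes reached 20 CPM and 6 were 2-fold higher (median 0.93). In the caudal progenitor list 8 of 14 reached it and 6 were 2-fold higher (median 1.18), among them Cdx1 at 24.8 and 7.66 CPM and Wnt8a at 61.5 and 26.6. In the neural progenitor list 12 of 15 genes reached it, and 6 were 2-fold lower and none higher (median -0.96). All 11 targets of fibroblast growth factor signalling were on the higher side, 1 of the 8 above 20 CPM by 2-fold (median 0.60): Fgf8 itself at 30.9 and 12.3 CPM.

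Lists of genes of tissue shape each held 1 gene or none 2-fold apart over all cells, beside 1.49% of all genes above 20 CPM. Lists this short cannot be read as holding less than that share. In the list of planar cell polarity, the pathway that orients cells during convergent extension, 11 of 21 genes reached 20 CPM, of which none was 2-fold higher and 1 was lower, with a median of -0.09. That gene was Fzd3, a Wnt receptor, at 28.8 and 58.7 CPM. None of the 12 of 16 actomyosin genes above 20 CPM was 2-fold apart (median 0.04), and none of the 8 of 16 basement membrane genes (median 0.20). In the list of apical junctions and polarity 1 of 8 above 20 CPM was higher (median 0.04 over 14 genes), the cadherin Cdh1 at 42.0 and 11.1 CPM (log2 1.83). Lists of S phase (0.07), G2 and mitosis (-0.09) and glycolysis (-0.13) had medians near 0 as well, with no gene above 20 CPM 2-fold apart. Hindbrain genes had a median of -0.46, with 10 of 14 above 20 CPM and 1 lower, Meis1. Hox genes of groups 6 to 9 had a median of -0.50, with 4 of 12 above 20 CPM and 1 lower, Hoxb9, at 48.9 and 108 CPM.

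Other signalling lists were mixed over all cells. Of 14 genes of the retinoic acid pathway, which drives neural differentiation in the trunk, 6 reached 20 CPM, of which 1 was 2-fold lower and none higher (median -0.10 over 14 genes). That gene was Nrip1, a nuclear receptor cofactor, at 23.9 and 51.0 CPM. Under 20 CPM, the receptor Rarb was lowest in the list, at 1.71 and 7.92 CPM (log2 -1.72). The binding protein Crabp1 stood at 907 and 1515 CPM (log2 -0.74), whereas within the spinal cord class it was higher, at 888 and 451 (0.98). The receptor Rarg was on the higher side, at 22.1 and 11.4 CPM (0.90). Only 2 of 11 canonical Wnt targets reached 20 CPM, neither of them 2-fold apart, and the 11 ran from -0.80 to 1.26 (median 0.40), with Notum, a secreted Wnt inhibitor, highest at 8.84 and 3.12 CPM. Lef1, a transcription factor of that pathway, stood at 54.8 and 27.6 CPM (0.96), and Axin2, its feedback inhibitor, at 18.0 and 19.3 (-0.10). In the Notch list 4 of 13 genes reached 20 CPM and 1 was 2-fold lower, Hes5, with a median of -0.12. Dll3, a Notch ligand under 20 CPM, was highest in that list, at 13.1 and 4.30 CPM (1.41).

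Dorsal and ventral patterning genes lay on both sides, and few were abundant enough to be called. Of 14 dorsal genes 6 reached 20 CPM over all cells and none of these was 2-fold apart. The 14 ran from -1.15 for Zic1, at 5.39 and 13.1 CPM, to 1.20 for Msx2, at 12.0 and 4.67 (median 0.08). Pax3 stood at 18.9 and 37.9 CPM (log2 -0.97), Msx1, a target of bone morphogenetic protein signalling, at 47.8 and 38.4 (0.31), and Olig3, a factor of dorsal progenitors, at 21.6 and 12.4 (0.76). Of 9 ventral genes 1 reached 20 CPM, Ptch1, the Hedgehog receptor and target, at 23.2 and 30.9 CPM (-0.40). The 9 ran from -0.40 to 0.64 (median 0.02). Of 11 neuron genes 1 reached 20 CPM as well, Stmn2, a microtubule regulator of neurons, at 90.1 and 136 CPM (-0.59). The 11 ran from -0.70 to 1.04 (median -0.16).

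Each difference over all cells can be split into a part from the share of UMIs in each class and a part from the level within classes. For the 80 genes 2-fold apart, a median of 75.5% of the difference lay in the levels within classes, and that part was over 50% for 77 genes. This part is the mean of 2 weightings, by the class shares of the non-elongated library, which put 74 genes over 50%, and by those of the elongated library, which put 78. With the elongated classes set to the shares of the non-elongated library, 44 of the 80 were still at least 2-fold apart. These were 31 of the 51 higher genes and 13 of the 29 lower ones. Among the 20 leading genes the within-class part ran from 54.3% for Rspo3 to 89.3% for Cldn4. The weightings were far apart for Pax6, 49.7% with non-elongated and 96.9% with elongated shares, for Hoxb5os, 40.4% and 75.3%, for Nr2f1, 55.3% and 91.8%, for Nr2f2, 61.6% and 94.3%, and for L1td1, 88.9% and 53.8%. At equal shares the log2 difference was 2.70 for Cldn4, 2.60 for Sfn, -2.06 for Pax6 and 1.34 for Pou5f1, whereas that of Rspo3 fell under 2-fold, at 0.86. The lowest parts were 46.9% for Hoxb9 and Cdx1 and 48.3% for Nkx1-2, a caudal progenitor factor. The split takes the class names as given.

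**Figure D3:**
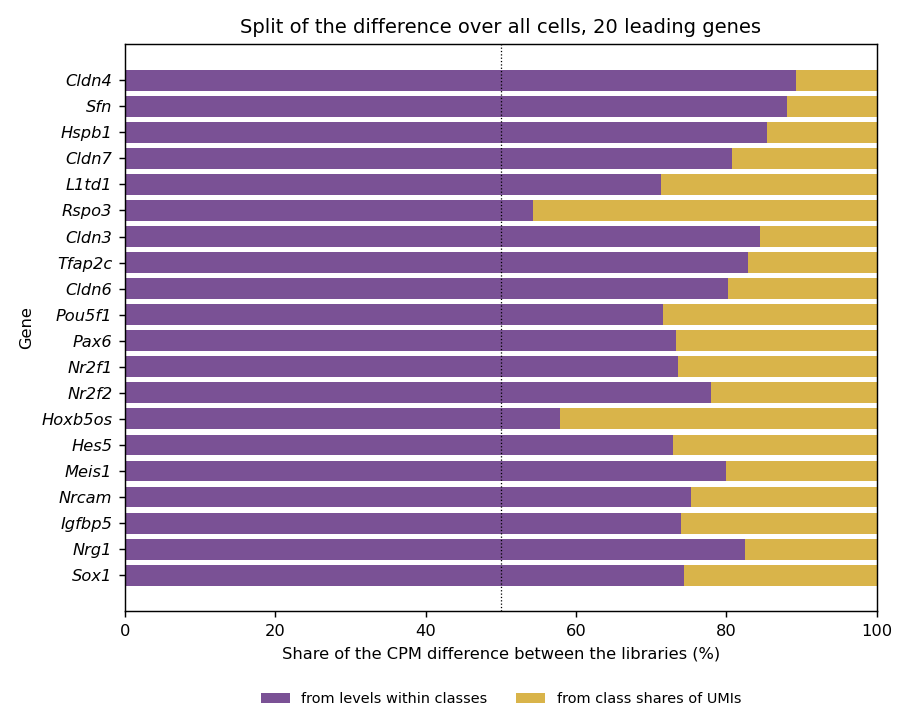
Share (percent) of the CPM difference between the libraries that lies in levels within classes and in class shares, for the 10 highest and 10 lowest genes over all cells. As the mean of 2 weightings, the part within classes passes the dotted line at 50% for all 20, from 54.3% (Rspo3) to 89.3% (Cldn4), but with non-elongated shares alone Pax6 (49.7%) and Hoxb5os (40.4%) lie under it.

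Comparisons within classes used 6 classes. The surface ectoderm class differed in the largest share of genes and the midbrain and anterior epiblast classes in the smallest. Class sums hold fewer UMIs than the whole library, and a 2-fold threshold takes no account of depth, so the share of genes past it is not comparable to a test between classes.

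**Figure D4:**
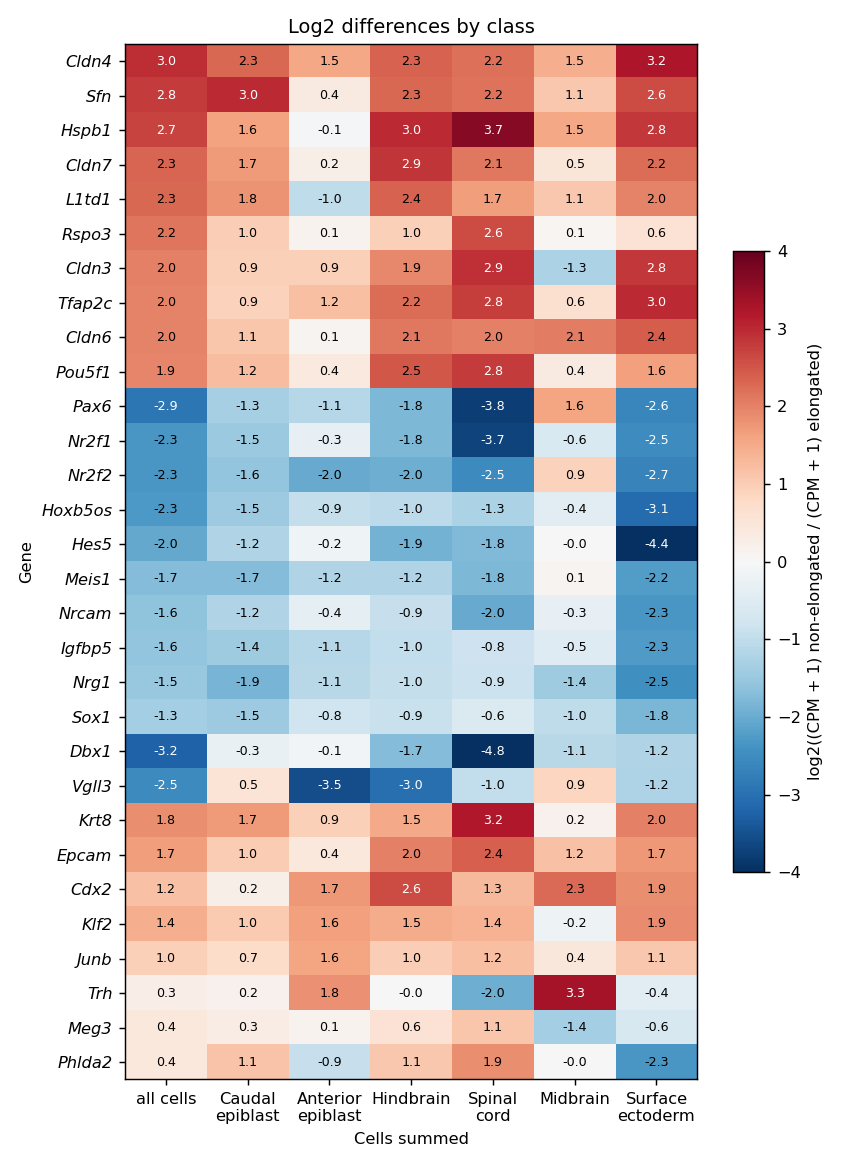
Log2 difference between the libraries (colour, positive where non-elongated is higher) for the genes that lead each comparison, over all cells and in each of 6 classes. Pou5f1, Epcam and Krt8 are positive in every class, whereas Pax6 runs from -3.77 in the spinal cord to 1.57 in the midbrain class.

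In the spinal cord class, 98 of 5455 genes (1.80%) were 2-fold apart, 52 higher (0.953%) and 46 lower (0.843%) in non-elongated organoids. Of the epithelial list 4 of 18 genes reached 20 CPM in this class and these 4 were 2-fold higher, and of the pluripotency list 5 of 15 reached it and 2 were higher (median 0.80). Of the neural progenitor list 12 of 15 reached it and 6 were 2-fold lower. Dorsal genes were mostly on the other side, 10 of 14 higher (median 0.38), with none of the 4 above 20 CPM 2-fold apart. Dbx1, a homeobox gene of intermediate spinal progenitors, was counted 3 times in the non-elongated class (0.546 CPM) and 698 times in the elongated class (41.0 CPM), an elongated to non-elongated ratio of 75.2 (25.6 to 366). Pax6 stood at 7.82 and 119 CPM, 15.2-fold lower (11.2 to 21.1). Nr2f1 stood at 3.27 and 54.2 CPM, 16.6-fold lower (10.4 to 28.1). Next were Mir124-2hg, the host of a neuronal microRNA, at 2.00 and 32.0 CPM, and Fez1, an axon outgrowth gene, at 2.55 and 32.3. Rarb, a retinoic acid receptor and target, stood at 3.82 and 24.3 CPM.

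Hox genes above 20 CPM in the spinal cord class stood closer together. Hoxb8 stood at 243 and 200 CPM, Hoxb9 at 301 and 380, Hoxc8 at 114 and 101, and Hoxa7 at 88.2 and 79.0. Of the 12 genes of Hox groups 6 to 9, 8 reached 20 CPM in this class and none of these was 2-fold apart. The 12 had a median of 0.17 and ran from -0.44 to 1.66, the last for Hoxd9, at 3.64 and 0.473 CPM. Higher in the non-elongated class were Hspb1 at 40.4 and 2.29 CPM, 17.6-fold (12.5 to 25.4), and Krt8 at 93.1 and 9.12, 10.2-fold (8.52 to 12.3). Pou5f1 stood at 41.6 and 5.12 CPM, Tfap2c at 49.1 and 6.29, and Rspo3 at 33.8 and 4.70. The caudal progenitor list was higher too, with 6 of the 8 above 20 CPM at 2-fold and a median of 1.35 over 14 genes. It included Fgf8 at 40.2 and 7.00 CPM (log2 2.36), Cdx2 at 136 and 54.7 (1.30), and Nkx1-2 at 42.0 and 17.5 (1.22). Markers of surface ectoderm summed to 346 CPM in the non-elongated spinal cord class and 46.9 in the elongated one, and epiblast markers to 396 and 195. Their part in the result was not tested.

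In the hindbrain class, 67 of 5351 genes (1.25%) were 2-fold apart, 42 higher (0.785%) and 25 lower (0.467%). Vgll3, a cofactor of TEAD transcription factors, was lowest, at 4.58 CPM in the non-elongated and 44.1 in the elongated class, 9.61-fold lower (7.65 to 12.2). Ppp1r1b, a regulator of protein phosphatase 1, stood at 5.97 and 27.4 CPM. The neural genes Nr2f2, Hes5 and Nr2f1 stood at 13.6 and 55.7, 8.53 and 34.2, and 17.1 and 62.5 CPM. Egr2, a rhombomere gene, stood at 32.9 and 53.6 CPM (log2 -0.69), short of 2-fold. Fgf3, a hindbrain ligand, was lower at 8.29 and 22.6 CPM (-1.34).

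Epiblast and epithelial genes again led the higher side of the hindbrain class. Hspb1 stood at 42.3 and 4.51 CPM, 9.39-fold higher (7.73 to 11.5). Cldn7 stood at 23.7 and 2.41 CPM, and Cdh1, the cadherin of epiblast and epithelia, at 22.2 and 3.12. Cdx2, which marks tissue caudal to the hindbrain, stood at 26.1 and 3.42 CPM, 7.63-fold higher (6.08 to 9.67). Pou5f1 stood at 129 and 22.1 CPM, 5.81-fold higher (5.30 to 6.37). Summed markers of surface ectoderm were 600 CPM in the non-elongated class and 193 in the elongated one, and epiblast markers 687 and 374. Their part in the result was not tested. The median of the fibroblast growth factor target list was 0.90 in this class, with 7 of 11 genes above 20 CPM and 4 of them 2-fold higher, namely the transcription factors Etv4, at 21.3 and 7.33 CPM, and Etv5, at 27.8 and 12.1, and the feedback inhibitors Dusp4, at 47.9 and 21.0, and Il17rd, at 26.9 and 10.7.

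In the caudal epiblast class, 50 of 5273 genes (0.948%) were 2-fold apart, 35 higher (0.664%) and 15 lower (0.284%). Of the caudal progenitor list, 7 of 14 genes reached 20 CPM and 1 was 2-fold higher, Fgf8 at 33.1 and 15.6 CPM (log2 1.04). The 14 ran from -1.14 for Cdx4, at 5.26 and 12.7 CPM, to 1.10 for T, with a median of 0.20. Cdx2 stood at 159 and 135 CPM (0.24), Nkx1-2 at 59.6 and 54.6 (0.13) and Wnt8a at 82.3 and 74.8 (0.14). Sfn was highest, at 29.7 and 2.90 CPM, 10.2-fold (7.61 to 14.1), followed by Cldn4 at 22.8 and 3.85. Tdh, a threonine dehydrogenase of pluripotent cells, stood at 23.3 and 5.81 CPM, L1td1 at 53.4 and 14.5, and Krt8 at 246 and 74.3. Pou5f1 stood at 337 and 144 CPM (1.22). T (Brachyury), whose reporter the line carries, stayed low, at 5.35 and 1.96 CPM (1.10). Surface ectoderm markers summed to 933 CPM in the non-elongated caudal epiblast class and 374 in the elongated one, and epiblast markers to 1101 and 649. Their part in the result was not tested.

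Of the neural progenitor list, 8 of 15 genes reached 20 CPM in caudal epiblast cells and 3 of these, Sox1, Sox21 and Cdh2, were 2-fold lower, with 4 of the 15 on the higher side (median -1.02). The 5 lowest genes of the class were Foxb1, a forkhead factor of the neural tube, at 15.3 and 47.5 CPM, Pax3, a dorsal factor, at 9.09 and 29.0, Sox1 at 8.57 and 25.4, Sox21 at 11.2 and 32.3, and Igfbp5 at 7.12 and 21.0. Each of these was about 3-fold lower, from 3.19-fold for Pax3 to 2.89-fold for Sox21. Hox genes of groups 4 and 5 had a median of -0.51 in this class, from -0.81 to -0.05, and 1 of the 7 reached 20 CPM.

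In the surface ectoderm class, 457 of 5647 genes (8.09%) were 2-fold apart, 264 higher (4.68%) and 193 lower (3.42%), although both libraries had nearly the same share of these cells. Epithelial genes were higher in the 164 non-elongated cells, and neural genes were higher in the 150 elongated cells. Of the epithelial list, 15 of 18 genes reached 20 CPM and these 15 were 2-fold higher (median 2.20), and of the neural progenitor list, 11 of 15 reached it and these 11 were 2-fold lower, with all 15 on the lower side (median -2.53). Krt8 stood at 2105 and 520 CPM, Krt18 at 1527 and 344, Sfn at 393 and 63.9, and Cldn4 at 241 and 24.7. Grhl2 and Grhl3, the Grainyhead-like factors of surface ectoderm, stood at 20.1 and 1.55 CPM and at 21.2 and 1.94, and the ligand Wnt6 at 67.2 and 6.02. Of 4 lists of tissue shape, 3 held more genes 2-fold apart here than over all cells, and of 16 actomyosin genes none of the 14 above 20 CPM was. Of 21 planar cell polarity genes 13 reached 20 CPM, 3 higher and 3 lower, from the secreted Wnt antagonist Sfrp1 at 21.2 and 125 CPM (log2 -2.51) to Prickle1 at 23.2 and 6.02 (1.79). Of 14 junction and polarity genes 10 reached it, 4 higher and 1 lower, and of 16 basement membrane genes 12, with 2 higher and 1 lower.

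Among the 5 highest genes of the surface ectoderm class were Rhox5, Upk1a, Ovol1 and 3830417A13Rik. Rhox5, an X-linked homeobox gene, stood at 51.7 and 1.94 CPM, 26.6-fold higher (14.3 to 56.2). Ovol1, a transcription factor of epithelial differentiation, stood at 22.7 and 0.777 CPM, 29.2-fold higher (11.1 to 109). Upk1a, a uroplakin of the urothelial surface, stood at 43.6 and 2.33 CPM.

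The 5 lowest genes of that class were neural or secretory. Hes5 stood at 2.21 and 69.1 CPM, 31.3-fold lower (17.7 to 61.1). Nefl, a neurofilament subunit, stood at 12.9 and 184 CPM, Vgf, a neuropeptide precursor, at 7.73 and 99.0, Rfx4, a neural transcription factor, at 1.29 and 28.7, and the protease Prss23 at 2.76 and 37.7. The cadherin of neural tissue, Cdh2, stood at 13.1 and 95.5 CPM, and Sox2 at 24.7 and 97.1. In the elongated class the 10 leading genes held 2 surface ectoderm markers, Sfn and Cldn4, beside Vgf, Plaur and Phlda2, and in the non-elongated class 4, Sfn, Cldn4, Krt7 and Krt18. Summed neuron markers were 224 CPM in the elongated class and 89.1 in the non-elongated one, and neural crest markers 29.5 and 29.3. The cells given this name thus differed between the libraries in the genes that define it.

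In the anterior epiblast class, 20 of 5386 genes (0.371%) were 2-fold apart, 18 higher (0.334%) and 2 lower (0.0371%). Among the higher ones Klf2, a Krüppel-like factor, stood at 272 and 86.9 CPM, Junb, an AP-1 subunit, at 228 and 76.1, the zinc finger factor Egr4 at 114 and 39.2, and the kinase Plk2 at 25.8 and 7.31. Immediate early genes respond within minutes to growth factors or to handling. Of that list, 13 of 14 were on the higher side here, with 10 above 20 CPM and 1 of them, Junb, at 2-fold (median 0.66). The list stood higher in the surface ectoderm class (median 0.82). There 5 of the 11 above 20 CPM were at 2-fold, against 4.68% of all genes. In the spinal cord class 2 of 10 were at 2-fold (median 0.30), against 0.953%. None of 10 was at 2-fold in the hindbrain (median 0.38), caudal epiblast (0.06) or midbrain (0.02) class, or over all cells (0.20). The share of all genes was 0.785%, 0.664%, 0.237% and 0.951% in these. Tal2, a factor of midbrain neurons, stood at 26.2 and 6.61 CPM, 3.97-fold higher (2.85 to 5.57), and En1 at 54.7 and 22.2 (log2 1.26).

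Both genes 2-fold lower in anterior epiblast cells were Vgll3, at 0.972 CPM (4 UMIs) and 21.9 CPM (189 UMIs), 22.6-fold (8.67 to 83.7), and Crabp1, a retinoic acid binding protein, at 146 and 364 CPM. Next in rank but under 2-fold were Col2a1 (log2 -0.99), Nrip1 (-0.97) and Prrx2 (-0.93). Median depth was 33122 UMIs per cell in the non-elongated and 42151.5 in the elongated class, the widest gap in UMIs of the 6 classes.

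The midbrain class, of 102 and 86 cells, had 20 of 5495 genes (0.364%) 2-fold apart, 13 higher (0.237%) and 7 lower (0.127%). Among its markers, En1, Otx2 and Pax2 were within 2-fold, En1 at 215 and 171 CPM, Otx2 at 71.2 and 47.4, and Pax2 at 66.6 and 58.5. Wnt1, the ligand of the midbrain organiser, was higher at 53.6 and 24.3 CPM, 2.20-fold (1.67 to 2.94). Trh, a hormone precursor, led at 56.5 and 4.74 CPM, 11.9-fold higher (7.01 to 21.8). Irs4 stood at 26.6 and 6.64, Tal2 at 42.8 and 11.4, Nupr1 at 21.0 and 5.37, and Fmr1nb at 31.9 and 10.7. Lower were Fgf15, a growth factor of the neural tube, at 8.77 and 31.3 CPM, Cldn10 at 6.66 and 22.8, Cyb5r1 at 8.06 and 23.7, the imprinted Meg3 at 184 and 473, and Slc39a1 at 8.06 and 21.8. The neural progenitor list had a median of 0.12 in this class, in contrast to its negative median in the other 5.

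No gene was 2-fold apart in the same direction in all 6 classes. Of 4698 genes above 20 CPM in every class, 363 were higher and 337 lower in every one. Across classes, 325 genes were 2-fold higher in at least 1 class and 262 of them in exactly 1, and 242 were 2-fold lower with 203 in exactly 1. The following genes were chosen after their values were seen. The 10 that were 2-fold higher in 4 or more classes were Epha2, Klf2, Nr4a1 and Epcam, in 5 classes each, and Hspb1, Gm49359, Smagp, Krt8, Krt18 and Pou5f1, in 4 each. The 7 that were 2-fold lower in 3 classes were Hes5, Ptn, Prss23, Rfx4, Sox1, Sox21 and Fgfbp3. Sox1 was lower in every class, from -1.84 in the surface ectoderm to -0.59 in the spinal cord on the log2 scale. Epcam was higher in every class, from 0.43 to 2.38, and Pou5f1 from 0.35 in the midbrain to 2.80 in the spinal cord.

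**Figure D5:**
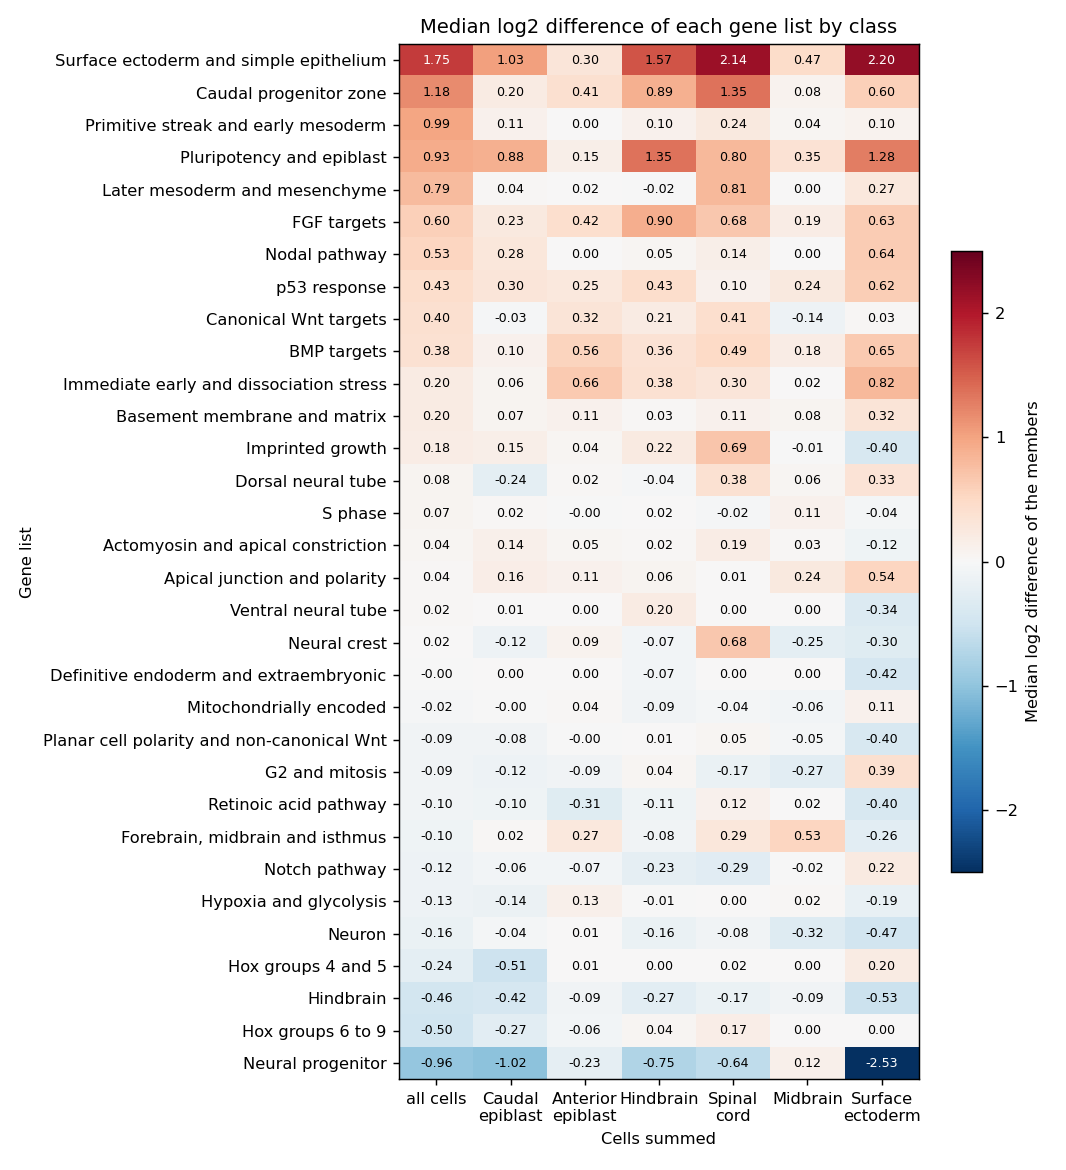
Median log2 difference (colour, positive where non-elongated is higher) of the members of each gene list, over all cells and in each of 6 classes. The epithelial list is positive throughout, from 0.30 to 2.20, and the neural progenitor list is negative in all but the midbrain class.

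By class, the epithelial list had medians of 2.20 in the surface ectoderm, 2.14 in the spinal cord, 1.57 in the hindbrain, 1.03 in the caudal epiblast, 0.47 in the midbrain and 0.30 in the anterior epiblast. The pluripotency list was highest in the hindbrain (1.35) and surface ectoderm (1.28), with 5 of 8 and 7 of 11 genes above 20 CPM 2-fold higher. The neural progenitor list stood at -1.02 in the caudal epiblast, -0.75 in the hindbrain and -0.64 in the spinal cord, with 3 of 8, 5 of 13 and 6 of 12 genes above 20 CPM 2-fold lower. The median over all genes above 20 CPM lay between -0.02 and 0.06 in the 6 classes. Many list members lie under 20 CPM within a class, so a median includes genes with few UMIs.

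The share of cells with at least 1 UMI of a gene does not depend on the class names. To compare shares at equal depth, every cell was thinned to 5000 UMIs, which all cells exceeded. Pou5f1 was then found in 50.2% of non-elongated cells (48.1 to 52.3%) and 15.3% of elongated cells (13.8 to 16.9%). Without thinning the shares were 81.4% and 45.4%. Epcam was found in 52.0% and 18.3%, and Krt8 in 49.8% and 20.9%. Cldn4 was rarer, at 9.84% (8.64 to 11.2%) and 1.30% (0.859 to 1.89%), and Sfn stood at 10.1% and 1.45%. Pax6 was found in 2.29% (1.71 to 3.00%) and 17.3% (15.7 to 19%). These shares differed in the same direction as the summed UMIs. Both come from the same counts, so the shares are no separate support. Free RNA gives UMIs in cells that do not express a gene, and in midbrain cells Sfn and Cldn4 were each found in 1 of 102 non-elongated cells (0.980%).

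Within classes, Dbx1 was found in 1 of 177 non-elongated spinal cord cells (0.565%, 0.0143 to 3.11%) and in 88 of 507 elongated ones (17.4%, 14.2 to 20.9%). In the surface ectoderm class Dbx1 was found in 0 of 164 non-elongated cells, which allows up to 1.83%, and in 1 of 150 elongated cells (0.667%). Elongated cells of that class carried neural genes such as Hes5, so only the non-elongated ones serve as a reference. The non-elongated spinal cord share of 0.565% lies within the 1.83% that they allow. Pax6 was found in 5.65% (2.74 to 10.1%) of non-elongated and 42.4% (38.1 to 46.8%) of elongated spinal cord cells. In mesenchyme it was found in 0 of 143 non-elongated cells, which allows up to 2.10%. Median depths before thinning were 29155 and 31811 UMIs in the spinal cord class and 32125.5 and 32556.5 in the surface ectoderm class.

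Pou5f1 was found in 34.9% (30.7 to 39.2%) of non-elongated and 6.89% (5.17 to 8.96%) of elongated hindbrain cells, and in 12.7% (6.96 to 20.8%) and 8.14% (3.34 to 16.1%) of midbrain cells. Cdx2 was found in 9.50% (7.09 to 12.4%) and 1.35% (0.650 to 2.47%) of hindbrain cells, against 2 of 102 (1.96%) and 0 of 86 midbrain cells, the latter allowing up to 3.49%. The elongated hindbrain share of Cdx2 is within the background of the midbrain class, and the non-elongated share is above it. Krt8 was found in 25.4% (19.2 to 32.5%) and 2.37% (1.23 to 4.10%) of spinal cord cells. In the surface ectoderm class Cldn4 was found in 56.7% (48.8 to 64.4%) and 8.67% (4.70 to 14.4%), and Nefl in 6.10% (2.96 to 10.9%) and 42.7% (34.6 to 51.0%). Nefl was at 6.61% and 6.35% of caudal epiblast cells, so the non-elongated surface ectoderm share is at the level of that class. For Trh in the midbrain class, 13.7% (7.71 to 22.0%) and 2.33% (0.283 to 8.15%), the intervals overlap.

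Cells with a UMI of a marker of each of 2 fates were counted after thinning. Cdh1 and Cdh2 were found together in 1.93% (1.40 to 2.59%) of non-elongated and 0.771% (0.441 to 1.25%) of elongated cells. Cdh1 by itself stood at 42.0 and 11.1 CPM over all cells, and its part in this difference was not tested. Epcam and Sox2 were found together in 12.7% (11.3 to 14.1%) and 6.84% (5.79 to 8.01%), with Epcam alone counted in 52.0% and 18.3% and Sox2 in 29.0% and 47.3%. Pou5f1 and Sox1 were found together in 2.11% (1.56 to 2.80%) and 1.49% (1.02 to 2.11%), with overlapping intervals. No doublet caller was run, so 2 cells under 1 barcode are among these counts.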

How the data were processed

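Gene expression was measured in single cells with the 10x Genomics Single Cell 3′ kit v3, per the labels' protocols. The submitters' processing notes name Cell Ranger 3.1 and the build mm10; how cells were filtered and classes assigned is not given in the sources used here. The authors deposited raw UMI counts of 18144 genes in each cell, with totals of UMIs and genes and the mitochondrial share in percent. All 3 matched sums over the matrix in each of 4301 cells. Their deposited names of genes, cells, libraries and classes, and a map of cells that was not used for any value, carry no unit (other).

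UMI counts were summed per library and class and scaled to CPM. Genes that reached 20 CPM in either sum were compared as log2 of (CPM + 1), with 2-fold as the threshold and no test, because each group has 1 library. Intervals are exact (Clopper-Pearson for shares, Poisson and its conditional ratio for UMI sums) at the 95% level; "up to" limits allow 3 counts. The text names the 10 highest and 10 lowest genes over all cells, the 5 and 5 of each class with 50 or more cells in both libraries, and members of gene lists; some genes that this rule names are not reported here. The members and lists were chosen with earlier results of these data known. Alternatives were other floors, folds, pseudocounts, totals and scaling factors (edgeR 4.0.16 TMM, DESeq2 1.42.0 size factors, R 4.3.3), the mean per cell, and leaving out cells. The steps were tested on simulated data. Python 3.11.15 with numpy 2.4.6, scipy 1.17.1 and pandas 2.3.3 was used. No doublet caller was run. Gene positions and promoters are from RefSeq, GRCm38.p6.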

Additional observations from a re-analysis of the deposited data

Results flagged for a closer look

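Each of 4 genes was at least 2-fold higher in non-elongated organoids in 1 class and at least 2-fold lower in another. The directions are opposite; with 1 library a side, the difference between classes was not tested. Phlda2, an imprinted gene that restrains growth of the placenta, had log2 differences of 1.128 in the caudal epiblast, 1.065 in the hindbrain, 1.851 in the spinal cord and -2.315 in the surface ectoderm class. Rrad, a small GTPase, stood at 1.056 in the caudal epiblast, 2.26 in the spinal cord and -2.037 in the surface ectoderm class. Phlda2 and Rrad are both among the 10 leading genes of the elongated surface ectoderm class. Cpe, an enzyme that processes neuropeptides, stood at 1.071 in the midbrain and -1.417 in the surface ectoderm class. Meg3, an imprinted non-coding RNA, stood at -1.36 in the midbrain and 1.119 in the spinal cord class.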

How the results depend on the processing

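No paired analysis was possible because each group has 1 library in this table. Among single genes, alternatives were run for the 10 highest and 10 lowest over all cells and the 5 and 5 of each class. None of these at 2-fold, and no list median of 1 or more in size, changed direction under any alternative run. The direction of other genes named as 2-fold apart was not checked under alternatives. Of 580 values for the leading genes, 447 stayed within the counting interval, and of 1600 list medians 1465 stayed within 0.1. Of 1764 shares of cells with a UMI, 967 moved out of their interval, all with more UMIs kept per cell or another draw. The number of genes called depends on the floor and the fold. With a floor of 5 CPM, 100 CPM and none, and with a threshold of 1.5-fold and 4-fold, the 80 over all cells became 203, 12, 281, 246 and 12. In the same order the 20 of the anterior epiblast became 68, 5, 186, 98 and 1, the 50 of the caudal epiblast 102, 9, 137, 161 and 2, and the 67 of the hindbrain 164, 9, 240, 217 and 11. The 20 of the midbrain became 142, 2, 525, 180 and 1, the 98 of the spinal cord 302, 15, 500, 317 and 28, and the 457 of the surface ectoderm 1049, 87, 1632, 1035 and 106. A pseudocount of 5 CPM left 13 in the anterior and 28 in the caudal epiblast. Leaving mitochondrial and ribosomal protein genes out of the total gave 41 in the midbrain (20 higher, 21 lower, against 13 and 7) and 148 in the spinal cord. The split between higher and lower also moved in the surface ectoderm with TMM factors (221 and 220, against 264 and 193), in the caudal epiblast with DESeq2 size factors (37 and 9, against 35 and 15), and in the anterior epiblast with the mean per cell (15 and 5) and without the 10% of cells with most UMIs (12 and 6), against 18 and 2. Without surface ectoderm and mesenchyme cells, an alternative added after the data were seen, 47 genes were higher and 26 lower over all cells. As a share of UMIs, the elongated library held 11.2% anterior epiblast, 20.6% caudal epiblast and 22.1% spinal cord; without its 10% of cells with most UMIs, 8.24% anterior and 16.1% caudal epiblast. With surface ectoderm and mesenchyme out of the denominator, the non-elongated library held 52.9% caudal epiblast, 26.3% hindbrain and 9.23% spinal cord, and the elongated 38.8% hindbrain and 26.6% spinal cord. Depth limits the midbrain class most, with 2851986 and 3163388 UMIs.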

Other observations

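Genes of responses that the report does not describe differed by less than 2-fold in most cases. All 12 genes of the p53 response list were on the higher side in non-elongated organoids over all cells, with a median log2 difference of 0.43 and 1 of the 8 genes above 20 CPM at 2-fold, Phlda3, at 163 and 73.5 CPM. Atf3, a stress-induced factor, was higher in all 6 classes, from 0.46 in the midbrain to 1.22 in the spinal cord, and Junb from 0.44 in the midbrain to 1.57 in the anterior epiblast. Other immediate early genes went both ways over all cells: Fos stood at 358 and 338 CPM, and Jun at 211 and 276. In the other direction, the histone genes Hist1h1e and Hist1h2ae were lower in all 6 classes, from -1.60 to -0.54 and from -1.18 to -0.50, beside S phase genes with a median of 0.07 over all cells. Genes named here by their range over classes were chosen after their values were seen.

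Imprinted genes were counted over all cells and in 6 classes, and the difference between classes was not tested. Over all cells 1 of the 8 above 20 CPM was 2-fold higher and 1 lower, against 0.951% and 0.541% of all genes. In the caudal epiblast 1 of 9 was higher, against 0.664%. In the hindbrain 1 of 8 was higher and 1 lower, against 0.785% and 0.467%. In the midbrain 1 of 8 was lower, against 0.127%. In the anterior epiblast none of 7 was 2-fold apart, against 0.371%. In the spinal cord class 9 of 14 reached 20 CPM, of which 3 were 2-fold higher in non-elongated organoids, against 0.953% of all genes tested there, and none lower (median 0.69), with Meg3 at 493 and 226 CPM, Peg10, a retrotransposon-derived placental gene, at 143 and 62.1, and Phlda2 at 53.1 and 14.0. In the surface ectoderm class 11 of 14 reached 20 CPM. Of these, 2 were higher, against 4.68% of all genes tested there, Peg10 at 212 and 50.7 CPM and H19 at 29.3 and 10.1. Another 4 were lower (median -0.40), against 3.42%, among them Nnat, a membrane protein of developing brain, at 67.2 and 237. Markers of endoderm summed to 13.1 and 13.2 CPM over all cells.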
